A study of Mus musculus with 6 samples.

Results

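Ager, Hopx, Rtkn2, Pdpn, Aqp5, Clic5, Akap5, Tm4sf1, Cldn18 and Krt7 are used as identity genes of the alveolar type 1 (AT1) cell, and these 10 genes were taken by symbol from the 56884 genes in the files. AT1 cells are the flat epithelial cells that cover most of the gas-exchange surface of the lung. Alveolar type 2 (AT2) cells make surfactant and act as progenitors of AT1 cells. An AT1 cell spreads thin against the capillaries, and its typical transcripts encode membrane proteins, channels, junction proteins and regulators of the cytoskeleton.

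The study deleted the growth factor genes Bdnf or Hgf in pericytes, the mural cells of capillaries, and profiled lung cells of mice at postnatal day 21 with BD Rhapsody, a bead-based single-cell method that counts unique molecular identifiers (UMIs). The 4 lung libraries were Bdnf lox/lox, Bdnf iPCKO, Hgf lox/lox and Hgf iPCKO, and each pooled cells of 2 littermates. The iPCKO mice carried the floxed alleles with Pdgfrb(BAC)-CreERT2, a transgene driven in PDGFRβ-expressing mural cells, and lox/lox mice were the controls. Pups received 3 injections of 50 µg tamoxifen, from postnatal day 1 to day 3. Beads against CD45 and Ter119 had removed leukocytes and red blood cells, so shares of cell classes are shares of what remained. With 1 library a genotype there was no test between genotypes, and mouse, dissociation and library cannot be told apart from the deletion. All intervals are 95% intervals and cover counting error only.

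The 4 matrices held 69403166 to 186701379 UMIs, and 13660 to 21399 cells a library were kept, at a median of 2795 to 6786 UMIs a cell. In each pair the iPCKO library was the shallower per cell. Pairs of libraries shared 221 to 360 cell barcodes, against 226 to 359 for barcodes drawn independently. Levels are given as CPM, a gene's UMIs summed over the cells of a class and scaled to the total UMIs of that class. Hgf, the gene deleted in the Hgf pair, was at 163 CPM (interval 105 to 243, 24 UMIs) in pericyte-gated cells of the control and at 28.0 CPM (interval 13.4 to 51.4, 10 UMIs) in those of the mutant. In the Bdnf libraries it was at 206 CPM and 143 CPM. Bdnf was at 16.3 CPM (interval 5.97 to 35.4, 6 UMIs) in Bdnf lox/lox and at 5.83 CPM (interval 0.706 to 21.05, 2 UMIs) in Bdnf iPCKO pericyte-gated cells, a difference that was not detectable at this depth. In the Hgf libraries it was at 6.80 CPM and 14.0 CPM. The deleted exons are not given in the sources used here, and counts at the 3′ end may lie outside them. AT1-gated cells, which the transgene is not meant to reach, held Bdnf at 214 CPM, 193 CPM, 324 CPM and 268 CPM in the 4 libraries, in the order in which they are named above. All lists of 4 values keep this order.

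Cells were assigned to classes by marker genes that included none of the 10 identity genes. The AT1 gate used 11 markers, among them the collagen genes Col4a3 and Col4a4 of the alveolar basement membrane and the sodium channel subunit gene Scnn1g. It held 1241 cells in Bdnf lox/lox, 2202 in Bdnf iPCKO, 867 in Hgf lox/lox and 977 in Hgf iPCKO. Clustering without the 10 genes placed 99.7%, 99.3%, 93.8% and 90.9% of them in AT1 clusters, so gate and clusters picked nearly the same cells. AT1-gated cells made up 8.81% (8.35 to 9.29) of gated cells in Bdnf lox/lox and 11.7% (11.3 to 12.2) in Bdnf iPCKO. They made up 6.85% (6.42 to 7.31) in Hgf lox/lox and 7.36% (6.92 to 7.82) in Hgf iPCKO. The intervals of the Bdnf pair lay apart and those of the Hgf pair overlapped. Those of the controls lay apart as well, and intervals of counting error do not measure the spread between libraries. Cells without a class, which this denominator leaves out, were 6.69%, 12.4%, 7.41% and 13.2% of kept cells, more in each mutant than in its control. Of cells in the 3 alveolar classes, AT1-gated cells made up 17.7% (16.8 to 18.6) in Bdnf lox/lox and 24.0% (23.2 to 24.9) in Bdnf iPCKO, and 13.3% (12.5 to 14.1) in Hgf lox/lox and 19.5% (18.4 to 20.6) in Hgf iPCKO. By this denominator the intervals lay apart in both pairs and between the controls. AT2-gated cells, which make up most of it, were a smaller share of gated cells in each mutant, 39.3% and 34.5% in the Bdnf pair and 43.1% and 28.6% in the Hgf pair. Cells that passed the AT1 and the AT2 gate together were kept as a class of their own, of 235, 490, 216 and 251 cells, and before doublets were removed Scrublet had called 50.0%, 30.8%, 8.86% and 0.791% of such cells doublets. The score threshold was 0.217 in the Bdnf and 0.394 in the Hgf libraries, so these shares do not compare between the pairs.

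The annotation (GRCm39) places Ager at chr17:34816827-34819910, Clic5 at chr17:44445659-44591590, Aqp5 at chr15:99488532-99492710, Krt7 at chr15:101308924-101328194, Rtkn2 at chr10:67815390-67895570 and Akap5 at chr12:76371613-76382157, all on the plus strand. Hopx (chr5:77234831-77263022), Pdpn (chr4:142990871-143026143), Tm4sf1 (chr3:57193032-57209430) and Cldn18 (chr9:99571514-99599320) lie on the minus strand. A gene on the opposite strand overlaps Hopx, Rtkn2, Aqp5, Clic5, Cldn18 and Krt7, and Gm65402 overlaps Clic5 on the same strand, so part of the Clic5 UMIs could belong to a neighbour. The paper gives no strand setting, and whether opposite-strand genes add to the counts was not tested. These positions come from a later GENCODE release than those the paper names, so the overlaps may differ from those in the authors' counting.

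Promoter sequences from RefSeq (GRCm38.p6) matched 9 of the 10 genes, with 2 starts each for Hopx and Cldn18. The 250 bases before the start are shown for Hopx, Cldn18 and Tm4sf1, the 3 members past 1.5-fold in more than 1 of the 4 comparisons of mutant and control in AT1-gated and AT2-gated cells. They read 5′ to 3′ on the gene's strand, and capitals mark CACTTG or its reverse complement CAAGTG, letters found in binding sites of NKX2-1, the factor that specifies lung epithelium.
Hopx, chr5:77115124-77115373, -: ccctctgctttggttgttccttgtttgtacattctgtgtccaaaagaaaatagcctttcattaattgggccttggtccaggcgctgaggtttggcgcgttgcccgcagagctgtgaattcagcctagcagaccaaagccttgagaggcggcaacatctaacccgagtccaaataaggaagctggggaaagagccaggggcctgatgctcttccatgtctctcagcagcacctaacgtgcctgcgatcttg
Hopx, chr5:77095268-77095517, -: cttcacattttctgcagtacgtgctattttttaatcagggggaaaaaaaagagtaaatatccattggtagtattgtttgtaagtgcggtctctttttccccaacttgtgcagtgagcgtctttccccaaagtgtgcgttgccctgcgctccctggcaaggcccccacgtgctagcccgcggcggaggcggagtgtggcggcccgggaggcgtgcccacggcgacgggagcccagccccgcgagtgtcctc
Cldn18, chr9:99717268-99717517, -: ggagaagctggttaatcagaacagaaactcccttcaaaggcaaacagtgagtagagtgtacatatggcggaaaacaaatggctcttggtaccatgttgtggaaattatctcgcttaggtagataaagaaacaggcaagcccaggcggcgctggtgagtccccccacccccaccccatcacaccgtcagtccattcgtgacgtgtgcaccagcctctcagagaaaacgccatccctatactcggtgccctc
Cldn18, chr9:99710064-99710313, -: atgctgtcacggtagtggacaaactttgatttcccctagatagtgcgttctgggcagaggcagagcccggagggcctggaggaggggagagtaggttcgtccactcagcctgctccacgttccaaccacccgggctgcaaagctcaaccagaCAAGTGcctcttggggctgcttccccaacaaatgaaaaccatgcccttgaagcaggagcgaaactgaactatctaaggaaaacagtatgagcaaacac
Tm4sf1, chr3:57301989-57302238, -: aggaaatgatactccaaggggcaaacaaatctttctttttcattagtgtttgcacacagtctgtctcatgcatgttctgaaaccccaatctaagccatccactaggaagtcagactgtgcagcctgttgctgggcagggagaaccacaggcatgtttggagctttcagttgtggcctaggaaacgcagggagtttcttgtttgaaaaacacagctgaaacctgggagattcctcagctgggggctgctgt
These letters were in 1 of the 11 member promoters, a Cldn18 start, and in 11.5% of 32536 promoters of the same length. GGAATG or CATTCC, a core bound by TEAD factors, was in 0 of the 11 and in 12.6% of all. Both strands were searched, and a match is a description of the letters in this window only.

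The first comparison asked which cells held these transcripts. All 10 genes were higher in AT1-gated than in AT2-gated cells in 4 of 4 libraries. The median log2 ratio of the 10 was 4.67, 4.02, 4.46 and 4.28 in the 4 libraries, against 0.28 to 0.35 over all genes with at least 50 UMIs, of which 34.1%, 37.1%, 36.4% and 36.9% were at least 1.5-fold higher in AT1-gated cells and 21.9%, 18.6%, 21.6% and 20.3% lower. For each of the 10 genes the exact two-sided sign-flip permutation test over the 4 libraries gave p = 0.125 (adjusted 0.125), the smallest that 4 libraries can give, so the design cannot reach 0.05. The genes were listed for AT1 identity with earlier results of these data known, so the test gives them no independent support. For Ager, Rtkn2, Pdpn, Clic5, Akap5 and Krt7 the AT1 levels of the 4 libraries lay above those of every other class among the 13 with enough cells. The share of all genes with such an order was not counted, so the order describes these genes only. For Hopx, Aqp5 and Cldn18 they overlapped only those of the AT1-AT2 class, and Tm4sf1 had another order.

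Among membrane and channel genes, Ager encodes the receptor for advanced glycation end products, abundant in the AT1 membrane. It was at 4246 CPM in Bdnf lox/lox, 3711 in Bdnf iPCKO, 6158 in Hgf lox/lox and 4723 in Hgf iPCKO AT1-gated cells, and at 495, 439, 570 and 332 CPM in AT2-gated cells. The mean log2 ratio of AT1 over AT2 was 3.36 ± 0.35 (SD, n = 4 libraries). Pdpn encodes podoplanin, a surface glycoprotein also known from lymphatic vessels. It was at 1151, 836, 1142 and 1162 CPM in AT1-gated and 19.0, 29.2, 17.3 and 11.9 CPM in AT2-gated cells (log2 ratio 5.85 ± 0.74), and lymphatic endothelial-gated cells, at 217 to 433 CPM, came next after the alveolar classes with AT1 markers. Bdnf iPCKO was the low AT1 library for Pdpn, and the other 3 lay close together.

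Aqp5, a water channel, was at 729, 679, 1502 and 780 CPM in AT1-gated cells, where Hgf lox/lox stood above the other 3. In AT2-gated cells it was at 61.1, 43.4, 250 and 280 CPM (log2 ratio 2.90 ± 1.11), higher in both Hgf libraries than in both Bdnf libraries. Clic5 encodes a chloride intracellular channel protein that links membrane and cytoskeleton. It was at 5834, 4256, 6750 and 5920 CPM in AT1-gated and 110, 151, 163 and 169 CPM in AT2-gated cells (log2 ratio 5.26 ± 0.39). Clic5 was also an endothelial transcript, at 2226 to 2966 CPM in aerocyte-gated cells, the capillary cells that lie against AT1 cells, and at 985 to 1227 CPM in other endothelial-gated cells.

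Among regulators and scaffolds, Hopx encodes a small homeodomain protein that does not bind DNA. It was at 7763, 11651, 14927 and 19454 CPM in AT1-gated and 96.9, 411, 230 and 430 CPM in AT2-gated cells (log2 ratio 5.67 ± 0.66). After the classes with AT1 markers came aerocyte-gated cells, at 1278 to 3554 CPM. Rtkn2 was at 2365, 2688, 1836 and 1481 CPM in AT1-gated and 28.0, 83.1, 19.8 and 19.0 CPM in AT2-gated cells (log2 ratio 6.06 ± 0.70). Akap5, a scaffold that anchors protein kinase A, was at 1434, 1084, 1268 and 890 CPM in AT1-gated and 50.4, 64.3, 49.1 and 45.7 CPM in AT2-gated cells (log2 ratio 4.47 ± 0.35). In both pairs the iPCKO library had the lower AT1 level of Akap5.

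Of the junction and filament genes, Cldn18 encodes a claudin of alveolar tight junctions. It was at 5164, 4384, 4108 and 2274 CPM in AT1-gated and 1140, 934, 1097 and 512 CPM in AT2-gated cells, and its log2 ratio of 2.12 ± 0.14 was the smallest mean of the 10 and the one that varied least. Krt7, a keratin of simple epithelia, was at 722, 637, 698 and 658 CPM in AT1-gated and 39.0, 43.8, 37.1 and 34.0 CPM in AT2-gated cells (log2 ratio 4.15 ± 0.19). Its AT1 level varied less between libraries than that of any other member. Airway secretory-gated cells held it at 73.6 to 103 CPM.

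Tm4sf1, a four-span membrane protein known from endothelium, went against the label. It was at 245, 108, 336 and 104 CPM in AT1-gated cells, and AT1 came 6th among the 13 classes. Endothelial-gated cells were at 1647, 1438, 1990 and 1071 CPM, ciliated-gated cells at 1190 to 1562 CPM and smooth muscle-gated cells at 669 to 1429 CPM. The ranges of these 3 classes overlapped, and all 3 lay above AT1. AT2-gated cells were lower still, at 10.8, 18.2, 18.8 and 18.9 CPM (log2 ratio 3.42 ± 1.06).

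**Figure D1:**
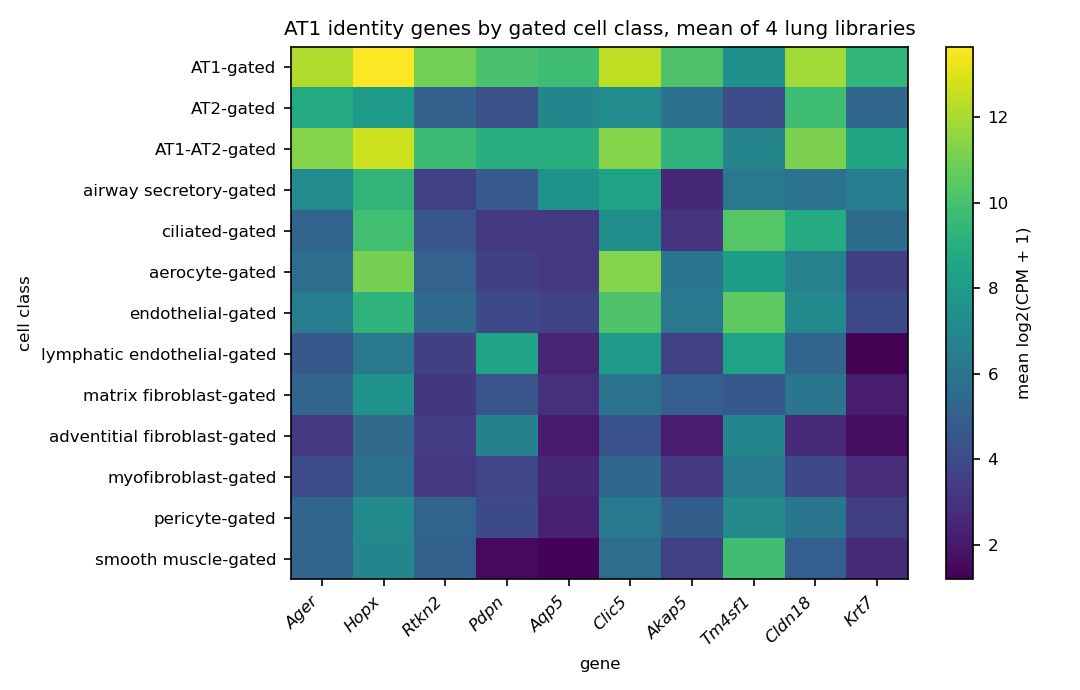
Mean over the 4 lung libraries of log2(CPM + 1) for each of the 10 genes (columns) in the 13 gated cell classes (rows), as colour. The AT1 row has the highest value in each column but that of Tm4sf1, which is highest in endothelial-gated cells.

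Detection in single cells was compared after each cell had been thinned to 1500 UMIs. A median of 8 of the 10 genes had a UMI in an AT1-gated cell in each library, against 2 in an AT2-gated cell and 0 in an immune-gated cell. The median was also 2 in endothelial-gated and in aerocyte-gated cells of each library. In AT1-gated cells Ager was found in 99.3% to 99.9%, Clic5 in 98.5% to 99.9%, Krt7 in 60.6% to 65.1% and Tm4sf1 in 9.77% to 29.2% of cells. In the 4 libraries Tm4sf1 was found in 22.2%, 11.0%, 29.2% and 9.77%, less often in each iPCKO library than in its control. Thinning left out 1, 3, 53 and 138 AT1-gated cells, and the median depth before it was 7744, 3890, 3995 and 2706 UMIs.

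AT2-gated cells shared some of the genes. Cldn18 was found in 77.7%, 68.0%, 77.1% and 51.1% of thinned AT2-gated cells. In endothelial-gated cells, set beside them as a comparison, it was found in 10.1%, 13.5%, 14.6% and 12.7%. What part of the endothelial shares was free RNA was not tested. Ager was found in 50.7%, 43.3%, 54.6% and 36.3% of AT2-gated and 4.34%, 8.53%, 8.16% and 12.1% of endothelial-gated cells. Both genes were thus found in a larger share of AT2-gated than of endothelial-gated cells in all 4 libraries. Rtkn2, at 3.11%, 8.31%, 2.24% and 2.00% of AT2-gated against 4.2%, 9.32%, 2.59% and 3.73% of endothelial-gated cells, had the smaller share in AT2-gated cells in all 4. The median depths before thinning were 8366, 5879, 4704 and 3569 UMIs in AT2-gated and 4021, 3206, 1874 and 1845 UMIs in endothelial-gated cells. Thinning left out 6, 1, 86 and 85 of the AT2-gated and 9, 23, 1213 and 1825 of 3649, 4701, 3762 and 5095 endothelial-gated cells, so the endothelial shares of the Hgf libraries come from their deeper cells. Without thinning Ager was found in 93.5%, 81.7%, 87.0% and 61.0% of AT2-gated cells.

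**Figure D2:**
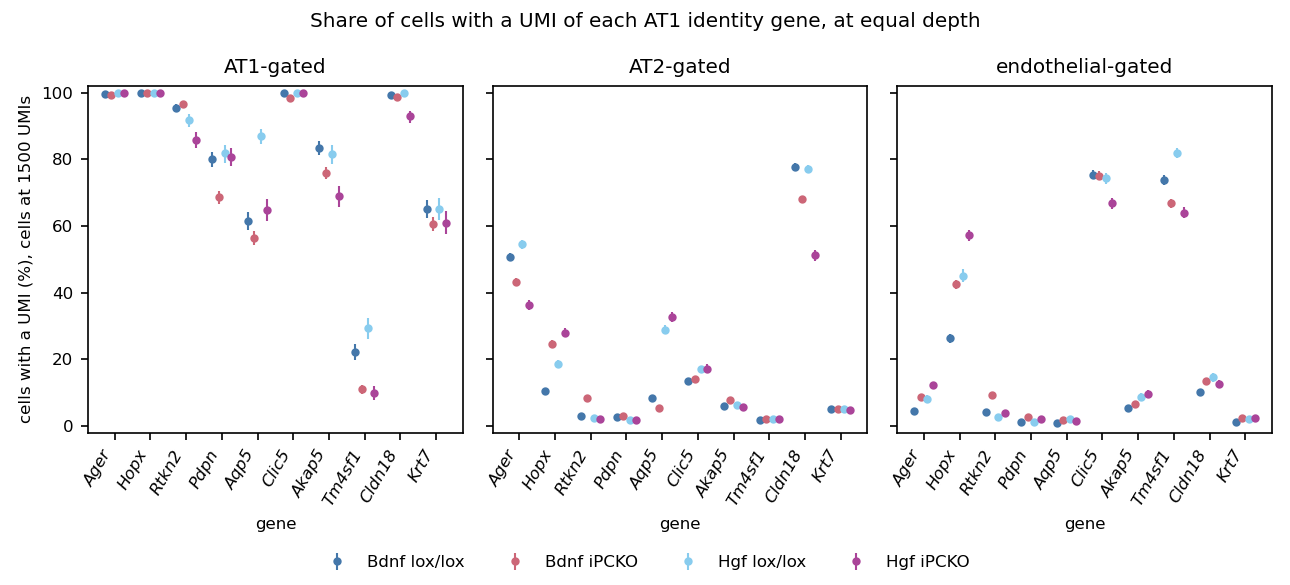
Share of cells (%) with at least 1 UMI of each gene after thinning to 1500 UMIs, in AT1-gated, AT2-gated and endothelial-gated cells of the 4 libraries (colours), with exact 95% binomial intervals. Tm4sf1 is the one gene found in more endothelial-gated than AT1-gated cells, and Ager and Cldn18 are found in many AT2-gated cells.

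The next comparison asked how the AT1 levels differed between Bdnf iPCKO and Bdnf lox/lox lungs. The level was lower in the mutant library for 8 of the 10 genes, mostly by little. Past 1.5-fold, 1 gene was lower (Tm4sf1) and 1 higher (Hopx), where 4.36% of 12354 genes were lower and 11.8% higher. The median log2 ratio of the 10 was -0.22, against 0.04 over all genes, whose quartiles were -0.19 and 0.30. Tm4sf1, at 245 and 108 CPM in control and mutant, had a log2 ratio of -1.18 (interval -1.29 to -1.08). Hopx, at 7763 and 11651 CPM, had 0.59 (interval 0.57 to 0.60), which sits on the 1.5-fold limit and was under it with median-of-ratios scaling and with clusters in place of the gate. Pdpn (-0.46), Clic5 (-0.45) and Akap5 (-0.40) were lower by less than the limit. Cldn18 (-0.24), Ager (-0.19), Krt7 (-0.18), Aqp5 (-0.10) and Rtkn2 (0.19) lay closer to 0.

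In the Hgf pair the AT1 level was again lower in the mutant library for 8 of the 10 genes. Past 1.5-fold, 3 genes were lower and 0 higher, where 14.0% of 9675 genes were lower and 11.6% higher. The median log2 ratio was -0.35, against -0.03 over all genes, whose quartiles were -0.36 and 0.28. Tm4sf1 was at 336 and 104 CPM in control and mutant, a log2 ratio of -1.69 (interval -1.88 to -1.51). In this pair it was also lower in endothelial-gated (1990 and 1071 CPM), aerocyte-gated (431 and 290 CPM) and smooth muscle-gated cells (1429 and 669 CPM). It was higher in ciliated-gated (1190 and 1562 CPM) and airway secretory-gated cells (49.7 and 83.1 CPM) of the mutant. Aqp5 was at 1502 and 780 CPM, a log2 ratio of -0.95 (interval -1.02 to -0.87), and its mutant level was near those of both Bdnf libraries. Cldn18 was at 4108 and 2274 CPM, a log2 ratio of -0.85 (interval -0.90 to -0.81), and Hgf iPCKO was the lowest of the 4 libraries. These 3 genes stayed past 1.5-fold under each alternative that kept them, and of them only Tm4sf1 was past 2-fold. Akap5 (-0.51), Ager (-0.38), Rtkn2 (-0.31) and Clic5 (-0.19) were lower by less. The ratio of Pdpn was 0.02 (interval -0.04 to 0.09) and that of Krt7 -0.08 (interval -0.17 to 0.00), while Hopx was higher in the mutant, at 0.38 (interval 0.37 to 0.40).

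**Figure D3:**
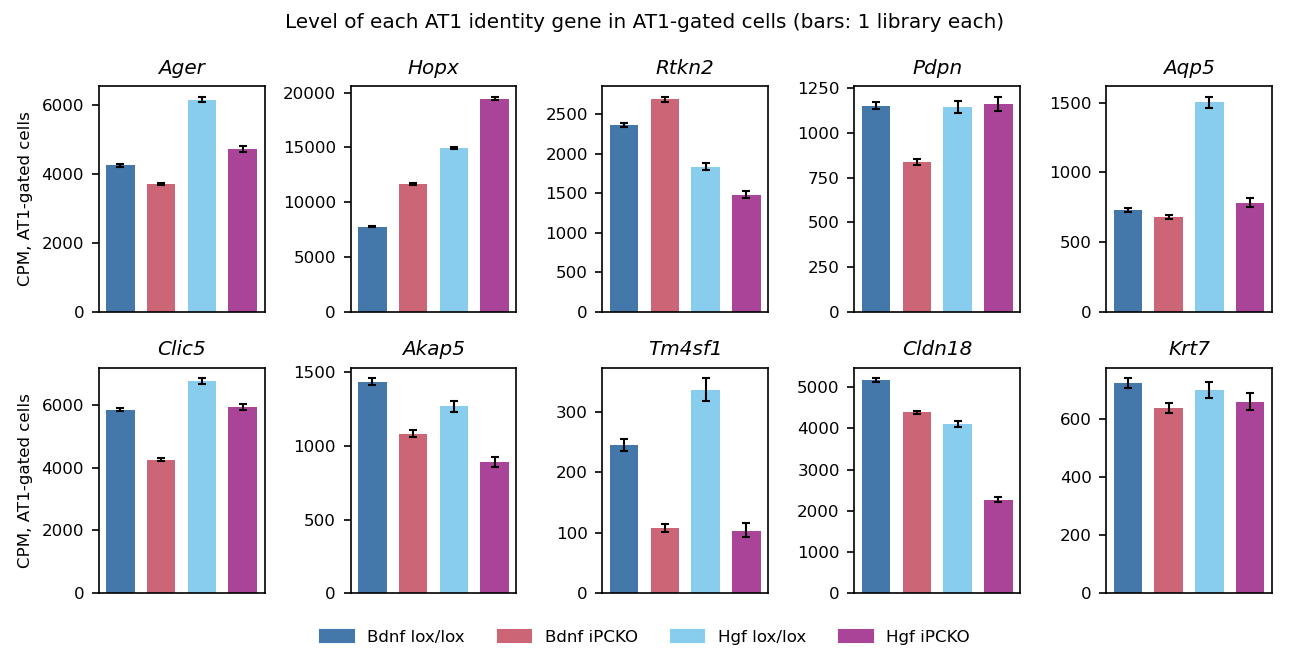
CPM of each gene in AT1-gated cells, with 1 bar a library, 95% Poisson intervals and an axis from 0 for each gene. Tm4sf1 is lower in each iPCKO library than in either control, whereas Aqp5 is high in Hgf lox/lox alone.

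The 2 control libraries were compared as well, with a deletion in neither. They differ in floxed line, in the minimum of UMIs for a barcode and in the Scrublet threshold, which a mutant and its control share. Depth differed too, at a median of 6786 UMIs a cell in Bdnf lox/lox and 3928 in Hgf lox/lox. Line, minimum, threshold, depth and library cannot be told apart here, so the control difference does not measure the spread within a pair. In AT1-gated cells Hgf lox/lox was higher than Bdnf lox/lox for Hopx, by a log2 ratio of 0.94 (interval 0.93 to 0.96), and for Aqp5, by 1.04 (interval 0.99 to 1.09). Both were past 1.5-fold, where 12.2% of 11368 genes were higher and 13.1% lower. The control difference was larger than the mutant difference of Hopx in either pair and of Aqp5 in either pair. For Tm4sf1 (0.45) the control difference was smaller than the difference in either pair, and for Cldn18 (-0.33) it was smaller than in the Hgf pair but larger than in the Bdnf pair. Ager differed by 0.54 between controls, more than in either pair. Each control serves in this comparison and in 1 mutant pair, so the ratios are not independent.

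**Figure D4:**
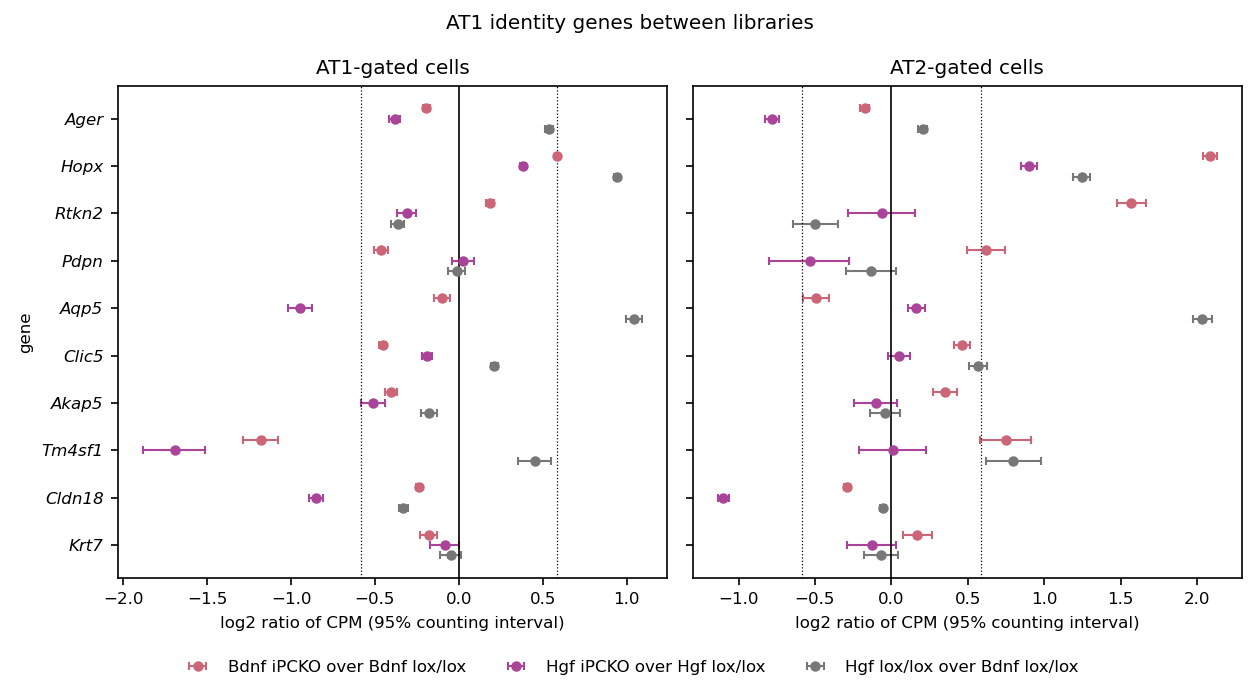
Log2 ratio of CPM for each gene with conditional exact 95% intervals, in AT1-gated (left) and AT2-gated (right) cells, for both mutant pairs and for the 2 controls (grey). Dotted lines mark 1.5-fold: Tm4sf1 lies past the lower line in AT1-gated cells of both pairs, and in the control comparison Hopx and Aqp5 lie past the upper line.

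Hopx was also higher in the mutant libraries outside AT1-gated cells. Over the 13 classes and the barcodes under 200 UMIs, which hold free RNA without a cell, it was higher in Bdnf iPCKO in 14 of 14 places and in Hgf iPCKO in 13 of 14. With no minimum of UMIs, it was past 1.5-fold in 12 of these places in the Bdnf pair and 8 in the Hgf pair. The places come from the same libraries and are not separate observations, and the same tally over all genes was not made. The largest difference of the Hgf pair, in pericyte-gated cells (40.8 and 414 CPM), rests on 6 and 148 UMIs. In the Hgf pair the counting intervals of control and mutant overlapped in ciliated (875 and 870 CPM), lymphatic endothelial (101.7 and 111.6 CPM), matrix fibroblast (192 and 216 CPM), myofibroblast (32.0 and 73.6 CPM) and smooth muscle (77.2 and 165 CPM) classes. In barcodes without a cell it was at 574, 1156, 1051 and 1527 CPM, in endothelial-gated cells at 261, 693, 729 and 1203 CPM and in adventitial fibroblast-gated cells at 23.7, 75.3, 23.9 and 86.3 CPM. The last pair of values rests on 44 and 32.5 UMIs. Hopx was not alone in the Bdnf pair. In endothelial-gated cells its log2 ratio was 1.41, and Aqp5 (1.33), Rtkn2 (1.31), Ager (1.28), Krt7 (1.07), Pdpn (0.98) and Cldn18 (0.65) were past 1.5-fold too, while Akap5 (0.28), Clic5 (-0.01) and Tm4sf1 (-0.20) were not. Of 15293 genes there, 6.48% were higher and 5.41% lower. In the Hgf pair Hopx had 0.72 in those cells. The other log2 ratios there were those of Aqp5 (-0.22), Rtkn2 (0.07), Ager (0.34), Krt7 (0.07), Pdpn (0.57) and Cldn18 (-0.60), and of Akap5 (-0.19), Clic5 (-0.28) and Tm4sf1 (-0.89), where 11.5% of 13494 genes were higher and 15.9% lower. In adventitial fibroblast-gated cells of the Bdnf pair, Rtkn2 (2.28), Akap5 (1.76), Hopx (1.67), Cldn18 (1.44), Clic5 (1.35) and Ager (1.12) were past 1.5-fold higher, Pdpn (-0.41) and Tm4sf1 (-0.02) were not past it, and Aqp5 and Krt7 had fewer than 50 UMIs. Of 11510 genes there, 7.23% were higher and 3.67% lower. Akap5 rests on 18 and 49 UMIs. The part of free RNA in these levels was not tested.

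**Figure D5:**
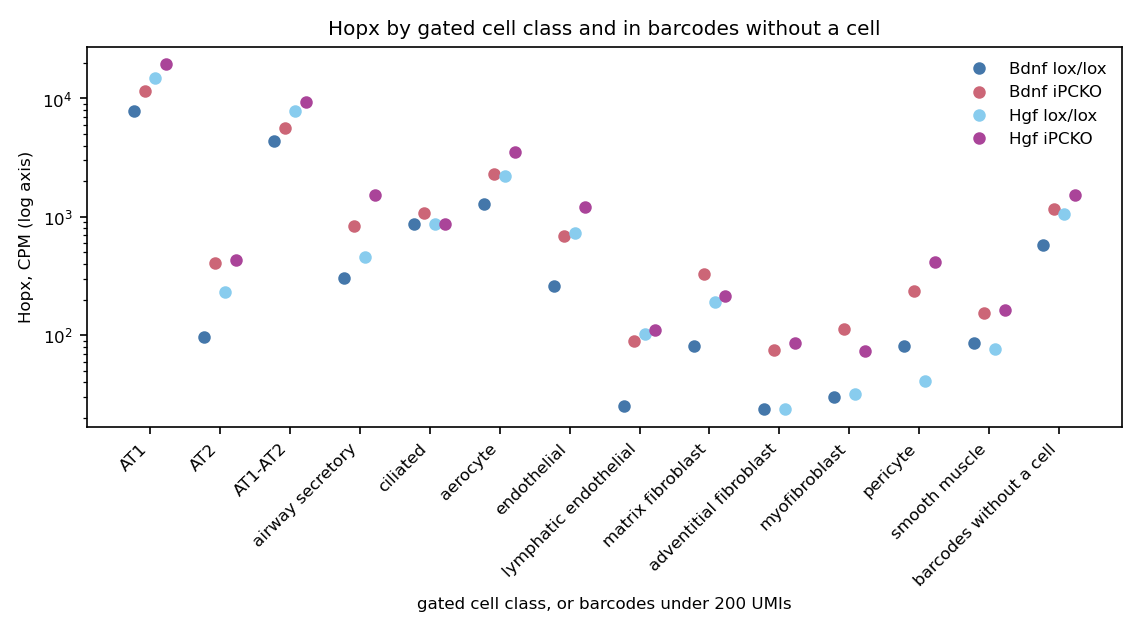
Hopx in CPM (log axis) in the 13 gated cell classes and in barcodes under 200 UMIs, with 1 point a library. The iPCKO point lies above that of its control in all places but ciliated-gated cells of the Hgf pair.

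In AT2-gated cells of the Bdnf pair the median log2 ratio of the 10 genes was 0.41. It was -0.17 with clusters in place of the gate and -0.0409 with a stricter gate, so its direction depended on which cells counted as AT2. Past 1.5-fold, 4 genes were higher and 0 lower, where 9.37% of 16834 genes were higher and 3.22% lower. Aqp5 (-0.49) was lower by more than 1.5-fold with clusters, with thinned cells and with a stricter gate. Hopx was at 96.9 and 411 CPM in control and mutant, a log2 ratio of 2.08 (interval 2.04 to 2.13). Rtkn2 was at 28.0 and 83.1 CPM (1346 and 3354 UMIs), a log2 ratio of 1.57. Hopx stayed past 1.5-fold under every alternative run, and Rtkn2 under each that left a level in both libraries. Pdpn (0.62) and Tm4sf1 (0.75) did not stay past it. The ratio of Hopx was as low as 1.31 among the alternatives. That of Rtkn2 was 0.85 with clusters and 0.99 with a stricter gate. With free RNA subtracted it was 8.62, but the estimated free RNA exceeded the control's level and left nothing of it. That value was set by a floor of 3 UMIs in the control and does not measure a ratio of levels. Rtkn2 was also higher in endothelial-gated cells of this mutant, with a log2 ratio of 1.31. The share of cells with an Rtkn2 UMI in AT2-gated cells of the mutant thinned to 1500 UMIs, 8.31%, was no higher than the 9.32% in endothelial-gated cells. Thinned AT2-gated cells with 5 or more of the 10 genes made up 1.43%, 4.64%, 3.30% and 2.72% in the 4 libraries, against 2.36%, 5.41%, 7.18% and 5.69% for endothelial-gated cells. The estimated share of free RNA, from the surfactant gene Sftpc in endothelial-gated cells, was 5.83%, 9.02%, 4.03% and 5.09%. These shares were all higher in Bdnf iPCKO than in its control, and their part in the AT2 levels was not tested.

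In AT2-gated cells of the Hgf pair 2 genes were lower and 1 higher by 1.5-fold, where 16.0% of 13948 genes were lower and 13.2% higher. Cldn18 was at 1097 and 512 CPM, a log2 ratio of -1.10 (interval -1.14 to -1.06), and was thus lower in both alveolar classes of this pair. Ager was at 570 and 332 CPM, a log2 ratio of -0.78 (interval -0.83 to -0.73). Hopx was at 230 and 430 CPM, a log2 ratio of 0.90 (interval 0.85 to 0.95). The median of the 10 was -0.08, against -0.02 over all genes. It was -0.24 with a stricter gate and -0.03 without Cldn18 and Krt7. Pdpn (-0.54) was lower by more than 1.5-fold with free RNA subtracted, with clusters and with a stricter gate, and Tm4sf1 with free RNA subtracted. Between the 2 controls, 3 of the 10 (Hopx, Aqp5 and Tm4sf1) were higher in AT2-gated cells of Hgf lox/lox by 1.5-fold and 0 lower, where 11.7% of 15923 genes were higher and 13.5% lower.

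The markers that set the gate are described with the members, with no test. Of 11 AT1 markers, 3 were lower by 1.5-fold in AT1-gated cells of the Bdnf pair and 3 in the Hgf pair, and 0 and 0 were higher. For this and the lists that follow, 4.36% of all genes were lower and 11.8% higher in the Bdnf pair, and 14.0% lower and 11.6% higher in the Hgf pair. The integrin subunit gene Itgb6 was at 338 and 140 CPM in the Bdnf pair and 442 and 120 CPM in the Hgf pair. Ndnf, a secreted neurotrophic factor, was at 1450 and 784 CPM and 1858 and 729 CPM. Igfbp2, which binds insulin-like growth factors, was at 479 and 293 CPM and 768 and 280 CPM. The summed level of 9 endothelial markers in AT1-gated cells was 227, 398, 534 and 707 CPM in the 4 libraries, and that of 9 AT2 markers 848, 1401, 925 and 745 CPM. That of 7 airway secretory markers was 487, 1232, 723 and 1574 CPM, and that of 9 immune markers 2.27, 3.78, 0.870 and 14.4 CPM. The endothelial, airway secretory and immune sums were higher in each mutant than in its control, and the AT2 sum was higher in Bdnf iPCKO and lower in Hgf iPCKO. Their part in the AT1 levels was not tested.

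Of 14 other AT1 genes, 2 were lower and 1 higher by 1.5-fold in AT1-gated cells of the Bdnf pair, and 4 lower and 3 higher in the Hgf pair, beside the same shares of all genes (4.36% and 11.8%, 14.0% and 11.6%). Lama3, a laminin subunit gene, was at 916 and 570 CPM (log2 ratio -0.68) and 878 and 386 CPM (-1.18). Pmp22, a four-span membrane protein, was at 1221 and 763 CPM (-0.68) and 2093 and 1355 CPM (-0.63). Atp1b1, a subunit of the sodium pump, was higher in both mutants, at 702 and 1171 CPM (0.74) and 450 and 2178 CPM (2.27). It went against the AT1 label, with 2299 and 2225 CPM in AT2-gated cells of the Bdnf pair and 1279 and 3365 CPM in those of the Hgf pair, above the AT1 level in all 4 libraries. Of 12 regulators of alveolar epithelium and YAP/TAZ targets, 0 were past 1.5-fold in the Bdnf pair and 1 in the Hgf pair, no more than the shares of all genes. The latter was Ccn2, a matricellular YAP/TAZ target, at 623 and 1583 CPM (1.34), which was at 401 and 430 CPM in the Bdnf pair. Yap1 had log2 ratios of 0.37 and 0.50, and Amotl2, which binds YAP, of -0.50 and -0.03.

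Of the genes listed for the transition from AT2 to AT1 cells, 9 had 50 UMIs or more in the Bdnf pair and 7 in the Hgf pair. Past 1.5-fold, 1 was lower and 3 higher in the Bdnf pair, and 3 lower and 1 higher in the Hgf pair, where 4.36% of all genes were lower and 11.8% higher, and 14.0% lower and 11.6% higher. Cdkn1a, a cell cycle inhibitor, was higher in both mutants, at 48.5 and 83.2 CPM (0.78 (interval 0.61 to 0.94)) and 27.8 and 209 CPM (2.91 (interval 2.60 to 3.22)). Hbegf, a ligand of the EGF receptor, was at 149 and 101 CPM (-0.55) and 305 and 97.8 CPM (-1.64). Ndrg1 (3.95 and 19.5 CPM) and Areg (1.78 and 5.56 CPM), another EGF receptor ligand, were higher in the Bdnf pair and fell short of 50 UMIs in the Hgf pair.

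The profile of each gene over the 13 classes and 4 libraries was set against the mean profile of the members. The most alike genes outside the list were, with Pearson's r, 2410004I01Rik (0.93), Lamb3 (0.92), Popdc3 (0.92), Wnt3a (0.91), Arf3 (0.90), Scnn1g (0.90, a gate marker), Tmem37 (0.90), Pals1 (0.89). The 52 points share libraries and the AT1 gate, so r is a description. Among 14911 genes Ager itself ranked 1 (r = 0.94), Pdpn 617 (0.62) and Tm4sf1 7744 (0.05).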

How the data were processed

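Of the whole-transcriptome BD Rhapsody libraries, 4 of lung were used, and 2 cortex libraries were not used here. The authors mapped reads with STAR 2.7.10a to GRCm39. They deposited their values as estimated counts of UMIs per gene and barcode, made by the authors with reads of several genes split among them (8.50% to 9.95% of entries were fractional) and without a filter on cells. Counts were summed as deposited and rounded for intervals and thinning. Barcodes of at least 1500 UMIs (Bdnf) or 700 UMIs (Hgf) were kept. Cells above 3 median absolute deviations in mitochondrial share were removed, and Scrublet (scanpy 1.11.5) removed 2.99% to 10.7% as doublets, at the lower threshold of the Bdnf pair and, as none was set for Hgf lox/lox, that of Hgf iPCKO for the Hgf pair. Each cell went to the class with the highest mean marker score (at least 0.35, with no other class above 0.6 of it), and 6.69% to 13.2% stayed without a class. In each library 4 to 22 AT1-gated cells lay within 0.05 of the minimum. UMIs were summed per library and class to CPM, and Poisson, conditional exact and Clopper-Pearson intervals came from scipy 1.17.1. Genes with 50 UMIs or more in the libraries compared were counted, with 1.5-fold as the limit. The ratio script was tested on simulated data.

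The members and lists were chosen with earlier results of these data known. Named were all members, genes of the wider lists past 1.5-fold the same way in AT1-gated cells of both pairs, the 2 with the largest ratio per list and pair, and the 8 most alike profiles (of genes with 500 UMIs or more, a minimum chosen after the data were seen). The 3 gate markers past the limit were named after their values were seen. The AT1 marker Gramd2a was not analysed here. Alternatives were a minimum of 1500 UMIs throughout, doublets or cells of high mitochondrial share kept, median-of-ratios scaling, free RNA subtracted, Leiden clusters (leidenalg 0.10.2), whole UMIs, thinned cells, a list without Cldn18 and Krt7, a stricter gate and other limits on UMIs and fold.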

Additional observations from a re-analysis of the deposited data

Results flagged for a closer look

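Over the 4 libraries, the log2 ratio of AT1-gated over AT2-gated cells had a value far from the other 3 for 2 of the 10 genes, by Dixon's criterion, which marks about 1 in 20 groups by chance. It was 5.02 for Rtkn2 and 3.86 for Krt7, and for both the low library was Bdnf iPCKO.

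In 3 cases the pairs lay on opposite sides of 0 and neither counting interval held 0. The difference between the pairs was not tested. How many of all genes meet the same rule was not counted, and intervals of counting error are narrow for genes with many UMIs. Rtkn2 in AT1-gated cells had a log2 ratio of iPCKO over lox/lox of 0.19 in the Bdnf pair and -0.31 in the Hgf pair. Pdpn in AT2-gated cells had 0.62 and -0.54, and Aqp5 in AT2-gated cells had -0.49 and 0.16. Pdpn in AT1-gated cells (-0.46 and 0.02) and Rtkn2 (1.57 and -0.06), Akap5 (0.35 and -0.10) and Krt7 (0.17 and -0.13) in AT2-gated cells differed in sign too, with an interval in the Hgf pair that held 0. With clusters in place of the gate, the Bdnf ratios in AT2-gated cells were -0.13 for Pdpn, -0.08 for Akap5 and -0.24 for Krt7, so for these 3 genes the sign differed between the pairs with the gate and not with clusters. The Hgf ratio of Pdpn in AT2-gated cells was -0.96 with free RNA subtracted and -0.08 with thinned cells. Hgf lox/lox over Bdnf lox/lox, the controls, gave -0.36 for Rtkn2 in AT1-gated cells. In AT2-gated cells it gave -0.13 for Pdpn and 2.03 for Aqp5.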

How the results depend on the processing

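No paired analysis was possible because each genotype has 1 library. The median of the members in AT2-gated cells of the Bdnf pair (0.41) turned to -0.17 with clusters and -0.0409 with a stricter gate, and with clusters Pdpn there to -0.13, Clic5 to -0.21, Akap5 to -0.08 and Krt7 to -0.24, the last 3 turning with a stricter gate as well; the cause was not tested. That median was 0.49 with doublets kept, 0.34 with free RNA subtracted, 0.23 with thinned cells and 0.54 without Cldn18 and Krt7. In AT1-gated cells the Bdnf median was -0.28 with median-of-ratios scaling, -0.17 with free RNA subtracted, -0.30 without Cldn18 and Krt7 and -0.19 with a stricter gate, the Hgf median -0.30 with a stricter gate, and the control median, 0.10 as counted, 0.15 with thinned cells and 0.33 without Cldn18 and Krt7. The median of AT1 over AT2 was 3.89, 5.21, 4.59, 4.87 and 4.59 with median-of-ratios scaling, free RNA subtracted, clusters, 8 members and a stricter gate, and 4.24 to 4.42 with 1 library left out, an alternative chosen after seeing the data. Subtraction of free RNA left nothing of Rtkn2 in AT2-gated cells of Bdnf lox/lox, nor of Tm4sf1 in those of either Bdnf library. These levels were set to a floor of 3 UMIs, and the medians 0.34 and 5.21 include them. Without thinning, the median share of cells with a UMI was 99.6%, 96.7%, 97.7% and 91.7% in AT1-gated and 28.1%, 20.5%, 25.9% and 21.9% in AT2-gated cells. The AT1 share of gated cells was 8.34% with clusters and 9.50% with a stricter gate in Bdnf lox/lox, 11.2% with doublets kept in Bdnf iPCKO, and 7.35% and 7.91% at a minimum of 1500 UMIs in the Hgf libraries. In AT1-gated cells the counts of all genes past the limit were 539 lower and 1452 higher in the Bdnf pair, 1352 lower and 1121 higher in the Hgf pair, 1488 lower and 1382 higher in the controls. They were 4437 lower and 8189 higher in the Bdnf pair, 5488 lower and 6282 higher in the Hgf pair, 5560 lower and 6136 higher in the controls without the UMI filter, and 113 lower and 509 higher in the Bdnf pair, 483 lower and 425 higher in the Hgf pair, 523 lower and 465 higher in the controls at 2-fold. Depth limits the values that rest on few UMIs, such as Bdnf in pericyte-gated cells.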
